A study of Mus musculus with 6 samples.

Results

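The genes examined mark the resident macrophages of bone marrow and of other tissues and were compared in monocytes from the mandible and the femur. The 10 genes were taken by name from the 57010 genes of the count table: Vcam1, Cd163, Mrc1, Timd4, Adgre1, Siglec1, Spic and the C1q chain genes C1qa, C1qb and C1qc. Each was found once. The monocytes came from the marrow of C57BL/6 mice that were 1 year old, and the labels name no allele or agent. Mice of both sexes were used, marrow was flushed from the dissected bones, and monocytes were taken as the cells that a magnetic kit leaves unlabelled. The libraries comprised 3 of the femur (S13, S15 and S18) and 3 of the mandible (S16, S19 and S23). The labels and the methods text do not tie a library to an animal or a sex or say whether animals were pooled. The tests thus measure the spread between these 6 libraries.

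Macrophages of the marrow sit at the centre of erythroblastic islands, where they hold developing red cells, engulf the nuclei that these cells expel and return the iron of old red cells to the blood. VCAM1 on the macrophage binds the integrin encoded by Itga4 and Itgb1 on the erythroblast, sialoadhesin (Siglec1) is a lectin for sialic acid, CD163 takes up hemoglobin bound to haptoglobin, the mannose receptor (Mrc1) takes up glycoproteins, TIM-4 (Timd4) binds phosphatidylserine on dying cells, and SPI-C (Spic) is an ETS family transcription factor of iron-recycling macrophages. Adgre1 encodes the F4/80 antigen, which monocytes also carry. C1q starts the classical complement pathway and is built from A, B and C chains, each the product of its own gene, and tissue macrophages are a main source of it.

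The C1q chain genes lie side by side on the minus strand of chromosome 4, within 18675 bases of GRCm38. C1qb (chr4:136880129-136886187) is separated by 3616 bases from C1qc (chr4:136889804-136893065), which is separated by 2851 bases from C1qa (chr4:136895917-136898803). The sequences before the starts of C1qb and C1qc are shown. These neighbours had the largest log2 fold changes among the tested macrophage and C1q genes, although neither was called. The sequence before Mrc1 on the plus strand of chromosome 2, whose fold change was small, is given beside them. The sequences are a description without a test. They are from RefSeq, build GRCm38.p6, read 5′ to 3′ toward the gene at chr4:136886201-136886450, chr4:136893066-136893164 and chr2:14229164-14229391. Capitals mark matches on either strand to GAGGAA, the core of the PU box to which ETS factors such as PU.1 and SPI-C bind, or to TGCTGA, a part of the MAF recognition element.
C1qb: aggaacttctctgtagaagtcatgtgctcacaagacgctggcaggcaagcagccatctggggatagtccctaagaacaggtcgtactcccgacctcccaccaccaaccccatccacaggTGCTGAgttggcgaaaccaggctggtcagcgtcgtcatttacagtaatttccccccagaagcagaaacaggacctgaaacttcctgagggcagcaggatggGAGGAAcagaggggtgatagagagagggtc
C1qc: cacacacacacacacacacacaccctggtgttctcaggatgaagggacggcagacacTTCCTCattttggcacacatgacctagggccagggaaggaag
Mrc1: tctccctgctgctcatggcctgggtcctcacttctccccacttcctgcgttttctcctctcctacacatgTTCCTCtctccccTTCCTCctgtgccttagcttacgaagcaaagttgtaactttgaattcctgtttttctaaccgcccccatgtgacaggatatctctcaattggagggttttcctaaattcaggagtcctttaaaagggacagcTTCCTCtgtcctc
RefSeq windows of 250 bases before the start were at hand for 6 of the 10 genes. GAGGAA was present in the windows of C1qb, C1qc and Mrc1 and absent from those of Cd163, Timd4 and Spic, and 23.3% of 32851 such windows of all genes held it. In the C1qb window it began 30 bases before the RefSeq start, in the C1qc window 193 bases, and in the Mrc1 window 180, 167 and 35 bases. TGCTGA was present in the windows of Timd4, C1qb and Spic, and in 16.1% of all windows. The C1qc and Mrc1 sequences printed here are shorter than the window because they stop at the start given by the other annotation.

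The libraries held 15718782 to 25371474 counts on genes. Expression is given as CPM, the count scaled to a common library total after TMM normalization. A count of 0 allows up to 3 counts by counting error alone, which correspond to 0.133 to 0.172 CPM. Femur S15 stood apart, with a count on 40494 genes against 17481 to 23513 in the other libraries, and 13454 genes had counts in S15 alone. Mandible S16 had no count on 2037 of the 18114 tested genes, against 31 to 1121 in the others. Xist, an RNA of female cells, was at 1441 CPM in mandible S23 and at most 0.553 CPM elsewhere, so that only S23 showed female RNA. The part of sex in the differences was not tested. As to the labelled cell type, all 24 genes of a monocyte list were tested, and their summed level was 13002 to 22052.5 CPM in the femur and 12062 to 20976 CPM in the mandible. The sum was led by Lyz2, Fn1 and F13a1, with means of 7662, 2032 and 1450 CPM in the femur. In the mandible their means were 6136, 4055 and 1681 CPM. A few genes thus set most of the sum, and whether the monocyte content was alike was not tested. Markers of other cells were present as well. Summed mesenchymal markers reached 8937 to 15474 CPM in the mandible against 324 to 439 CPM in the femur. Summed enamel and dental epithelial genes reached 5834 to 11439 CPM in the mandible against 0.221 to 4.88 CPM in the femur, and 8 of the 10 were called higher. Whether fewer macrophages or less RNA per macrophage lay behind a lower level cannot be told apart in such bulk samples.

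Of the 10 genes, 9 had enough counts to be tested, and only Vcam1 passed the thresholds of an adjusted p below 0.05 (quasi-likelihood F test in edgeR, Benjamini-Hochberg over all genes tested) and a fold change of at least 2. It was lower in the mandible. Of all 18114 tested genes, 1.3% were called lower and 3.88% higher in the mandible, and none of the 9 genes was called higher. An unadjusted p under 0.05 was reached by 3 of the 9, Vcam1, C1qb and C1qc, and by 16.4% of all tested genes. In the same 3 genes every mandible library lay below every femur library, which held for 11.5% of all tested genes, while the opposite order was seen in none of the 9 and in 12.7% of all. A log2 fold change below 0 was found for 7 of the 9, with a median of -1.97 against -0.038 over all tested genes. Of the 9, 4 (C1qa, C1qb, C1qc and Spic) reached the filter's level of 0.493 CPM in all femur libraries but not in all mandible libraries, so their place among the tested genes came from the femur and these counts and the median are no evidence of a direction.

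**Figure D1:**
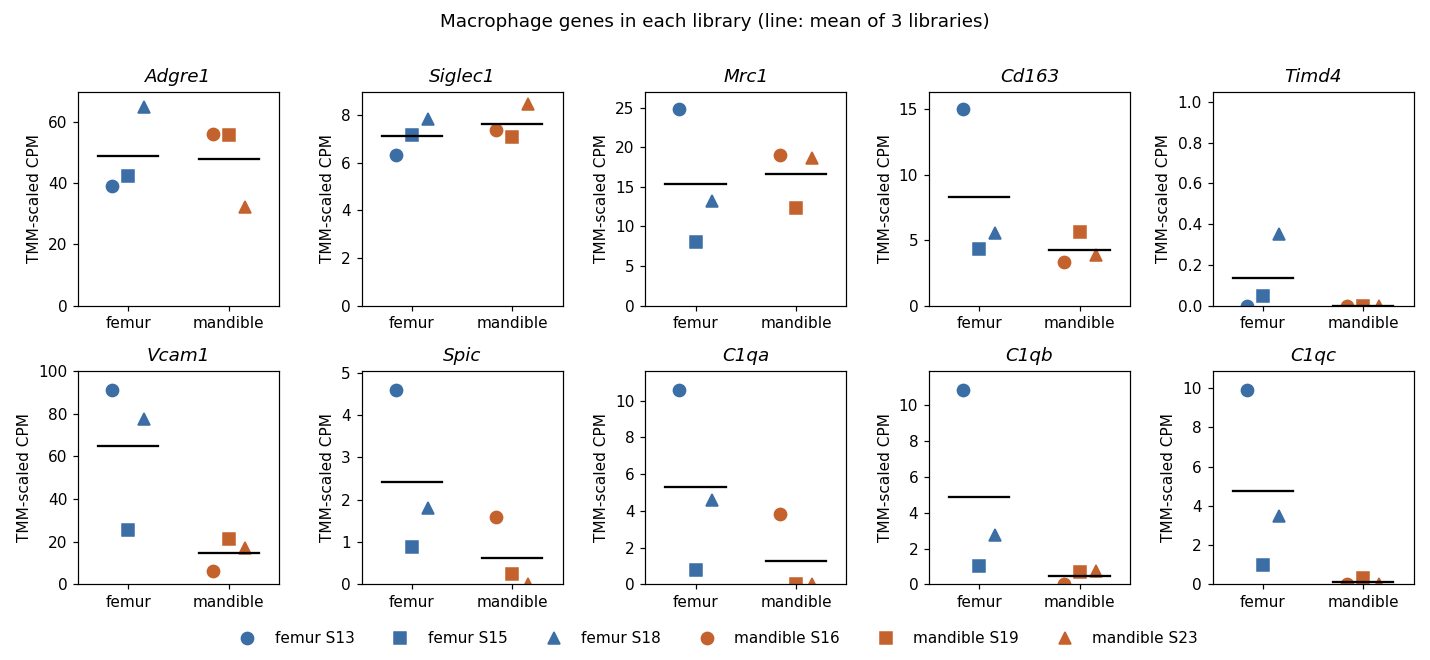
Expression of the 10 genes in TMM-scaled CPM (vertical axes, linear from 0, 1 panel per gene) in 3 femur (blue) and 3 mandible (orange) libraries, with the mean as a line. The femur points of Vcam1, C1qb and C1qc all lie above the mandible points, and those of Adgre1, Siglec1 and Mrc1 are mixed with them.

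Vcam1 (chr3:116109949-116129688 of GRCm38, minus strand) encodes the adhesion molecule by which island macrophages hold erythroblasts. It was at 91.2 CPM in S13, 25.4 CPM in S15 and 77.4 CPM in S18 of the femur, and at 6.25 CPM in S16, 21.4 CPM in S19 and 17.1 CPM in S23 of the mandible. The groups did not overlap, but the lowest femur library, S15, was close to the highest mandible library, S19. The means were 64.7 ± 34.7 CPM (SD, n = 3) in the femur and 14.9 ± 7.81 CPM (SD, n = 3) in the mandible, a log2 fold change of -2.11 (standard error, SE, 0.52, adjusted p = 0.040). An exact two-sided permutation test gave p = 0.1, the smallest that 3 against 3 libraries allow. Vcam1 was lower in the mandible in every alternative fit, from -2.67 to -1.75 on the log2 scale. It was not called, however, when S13, S18, S16, S19 or S23 was left out (adjusted p 0.18, 0.14, 0.12, 0.089 and 0.11), without normalization factors (adjusted p = 0.066), or per count of the monocyte list (adjusted p = 0.086). These were 7 of 17 refits of Vcam1, over which the adjusted p ran from 9.0e-08, in the edgeR test of all genes with any count, to 0.18. Gm43109 is annotated on the opposite strand over Vcam1, and without the strand setting of the counting their reads cannot be told apart.

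Vcam1 is also made by stromal and endothelial cells of marrow, so the markers of those cells are given beside it. Of 15 tested mesenchymal genes, 11 were called higher in the mandible and none lower, led in abundance by Col1a1, Col1a2 and Col3a1. Cxcl12, the chemokine of marrow stromal cells, chosen after its values were seen, ran the other way with 149 to 243 CPM in the femur and 34.7 to 121 CPM in the mandible, a log2 fold change of -1.42 that was not called (adjusted p = 0.084). Of 15 endothelial genes 12 were tested, with a summed level of 89.2 to 121 CPM in the femur and 60.5 to 114 CPM in the mandible. One of them, Esam, was called lower, and it is also a platelet gene. Pecam1, Eng and Flt1, the most abundant of the endothelial genes, were not called. Pecam1 ranged from 29.2 to 50.1 CPM over all 6 libraries, Eng from 8.06 to 16.8 CPM and Flt1 from 2.12 to 17.8 CPM. Cdh5, another endothelial gene, chosen after its values were seen, was at 0 to 1.82 CPM in all 6 libraries. The part of these cells in the Vcam1 difference was not tested. On the side of the receptor, Itga4 and Itgb1 had log2 fold changes of 0.45 and 0.48 and Itgb7, which pairs with Itga4 as well, 0.48, none of them called (adjusted p 0.46 to 0.58). None of the 8 tested genes in the list of VCAM1 receptors and related adhesion molecules was called in either direction.

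All 3 C1q genes had counts in each femur library, and only some of them in each mandible library. C1qa had 191, 17 and 104 counts in femur S13, S15 and S18. C1qb had 196, 22 and 62 counts in the same order, and C1qc 179, 21 and 79. The counts in S15 correspond to 0.783 to 1.01 CPM. Marco (0.783 CPM) and Mmp20 (0.875 CPM), chosen after their values were seen, had like levels in S15 and no count in S13 and S18. Whether the C1q counts of S15 are such a background was not tested. The A, B and C chains each took 25.3 to 42.4% of the C1q reads of every femur library, C1qa being at 33.7% in S13 (95% exact Clopper-Pearson interval 29.9 to 37.8%), 28.3% in S15 (17.5 to 41.4%) and 42.4% in S18 (36.2 to 48.9%). In the mandible, S16 had 76 counts on C1qa and none on C1qb and C1qc, S19 had 15 counts on C1qb, 7 on C1qc and none on C1qa, and S23 had 13 counts on C1qb alone. No mandible library had reads on all chains. These intervals cover counting error only, and reads copied from 1 molecule during amplification are not independent. A gene with at least 50 counts in 1 mandible library and none in both others, as C1qa was, occurred 29 times among the 18114 tested genes, and the femur had 34 such genes. With none in at least 1 of the others, the number was 765 in the mandible and 196 in the femur. Such a gene could pass the filter only with the help of libraries of the other bone. These numbers therefore cannot tell how unusual the C1qa counts were.

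**Figure D2:**
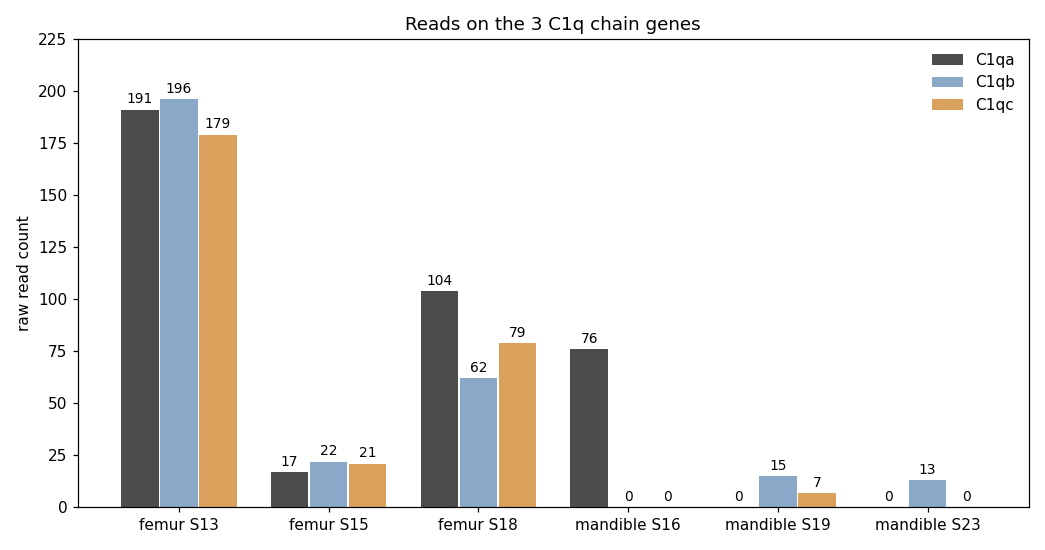
Raw read counts (vertical axis, from 0) on C1qa, C1qb and C1qc in each of the 6 libraries. All chains have counts in each femur library, and the mandible libraries show C1qa alone in S16, C1qb with C1qc in S19 and C1qb alone in S23.

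Scaled for depth, C1qc was at 9.89, 0.968 and 3.49 CPM in femur S13, S15 and S18, and at 0, 0.332 and 0 CPM in mandible S16, S19 and S23. The mean was 43.2 times as high in the femur (4.78 ± 4.60 CPM, SD, n = 3) as in the mandible (0.111 ± 0.192 CPM, SD, n = 3). The mandible mean rests on 7 counts in S19 alone, so the size of this ratio is poorly fixed. No mandible library reached the filter's level of 0.493 CPM, and C1qc was tested because of its femur counts. The log2 fold change was -5.32 (SE 1.62, adjusted p = 0.093), and -4.52 with the prior count raised to 2. C1qc was called by DESeq2 (adjusted p = 0.0027), in a test of all genes with any count (adjusted p = 0.0038) and without femur S15 (adjusted p = 0.041), in a range of 0.0027 to 0.61 over the alternatives. Without femur S13 its log2 fold change was -4.23 (adjusted p = 0.61), and without mandible S19 it was -9.60, where no mandible count remained. C1qb was at 10.8, 1.01 and 2.74 CPM in the femur libraries and at 0, 0.712 and 0.744 CPM in the mandible libraries. Its groups did not overlap, with S15 of the femur the nearest to the mandible. The log2 fold change was -3.31 (SE 1.39, adjusted p = 0.25), -3.09 with the prior count raised to 2, and -1.94 without femur S13.

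C1qa was at 10.5, 0.783 and 4.59 CPM in the femur and at 3.80, 0 and 0 CPM in the mandible, so that mandible S16 lay above femur S15 and the groups overlapped. Its log2 fold change was -2.06 (SE 1.65, adjusted p = 0.64). It was -1.08 without femur S13. With S16 left out, no mandible count on C1qa remained and the gene was called (adjusted p = 0.033, in a range of 0.033 to 1.00 over the alternatives). Summed over the chains, C1q stood at 31.3 CPM in S13, 2.76 CPM in S15 and 10.8 CPM in S18, and at 3.80, 1.04 and 0.744 CPM in S16, S19 and S23. The highest library was thus a femur library and the lowest a mandible library, while S15 lay below S16. Neutrophil markers took the same order in the femur, with a summed level of 34295 CPM in S13, 4108 CPM in S15 and 24952 CPM in S18, against 7363, 10838 and 4193 CPM in S16, S19 and S23. All 14 of these markers had a log2 fold change below 0 and 1, S100a8, was called lower. Eosinophil, basophil and mast cell genes stood at a summed 5717, 853 and 6192 CPM in S13, S15 and S18 and at 521, 473 and 942 CPM in S16, S19 and S23, with all 13 below 0, a median of -2.19 and 5 called lower. The part of these granulocytes in the C1q values was not tested.

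Spic (chr10:88674772-88685015, minus strand) followed a similar order, with 83, 19 and 41 counts in the femur and 32, 5 and 0 in the mandible. Its levels were 4.58, 0.875 and 1.81 CPM in S13, S15 and S18 and 1.60, 0.237 and 0 CPM in S16, S19 and S23. Femur S15 lay below mandible S16, and the log2 fold change of -1.97 had an SE of 1.56 (adjusted p = 0.64). It was -4.24 without mandible S16 and -1.12 without femur S13, and was called in neither fit (adjusted p = 0.30 and 1.00). Over the 6 libraries, which share their groups, the Pearson r of log2 CPM was 0.95 between Spic and C1qa, 0.71 between Spic and C1qc and 0.36 between Spic and C1qb, given as a description.

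Cd163 (chr6:124304656-124330527, plus strand) was at 14.97 CPM in femur S13 and between 3.30 and 5.60 CPM in the other 5 libraries. With 4.33 CPM in S15 and 5.52 CPM in S18 the rest of the femur lay within the mandible's range. The log2 fold change was -0.95 (SE 0.63, adjusted p = 0.54), and -0.20 without S13. Hemoglobin and red cell genes were highest in the same library. The summed erythroid list stood at 1964 CPM in S13, 312 CPM in S15 and 348 CPM in S18, and at 282, 137 and 183 CPM in S16, S19 and S23. All 15 tested erythroid genes had a log2 fold change below 0 and 4 were called lower, the hemoglobin chain genes Hba-a1, Hba-a2, Hbb-bs and Hbb-bt, whose near-identical copies can share reads. Whether the erythroid RNA and the macrophage RNA came together was not tested.

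For Adgre1, Siglec1 and Mrc1 the libraries of both bones overlapped. Adgre1 (chr17:57358691-57483527, plus strand) was at 39.1, 42.3 and 64.9 CPM in femur S13, S15 and S18 and at 55.9, 55.9 and 32.3 CPM in mandible S16, S19 and S23. The groups overlapped, and the log2 fold change was -0.022 (SE 0.31, adjusted p = 0.99). Siglec1 (chr2:131069220-131086765, minus strand) had the smallest spread, with 6.35, 7.19 and 7.86 CPM in femur S13, S15 and S18 and 7.41, 7.07 and 8.47 CPM in mandible S16, S19 and S23. Its means were 7.13 ± 0.757 and 7.65 ± 0.727 CPM (SD, n = 3 in each group), with a log2 fold change of 0.10 (SE 0.47, adjusted p = 0.96). Mrc1 (chr2:14229392-14332057, plus strand) was at 24.9, 8.02 and 13.3 CPM in the femur and at 19.1, 12.3 and 18.7 CPM in the mandible. Both mandible extremes lay inside the femur's range, and the log2 fold change was 0.12 (SE 0.45, adjusted p = 0.95). The sign of each of these 3 differences turned in some alternatives.

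Timd4 (chr11:46810800-46844332, plus strand), the phosphatidylserine receptor of long-lived tissue macrophages, was nearly absent. It had 0, 1 and 8 counts in femur S13, S15 and S18 and no count in the mandible. The 8 counts in S18 (0.353 CPM) were the only value above the floor of 3 counts. Timd4 did not pass the filter on low counts and was not tested.

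**Figure D3:**
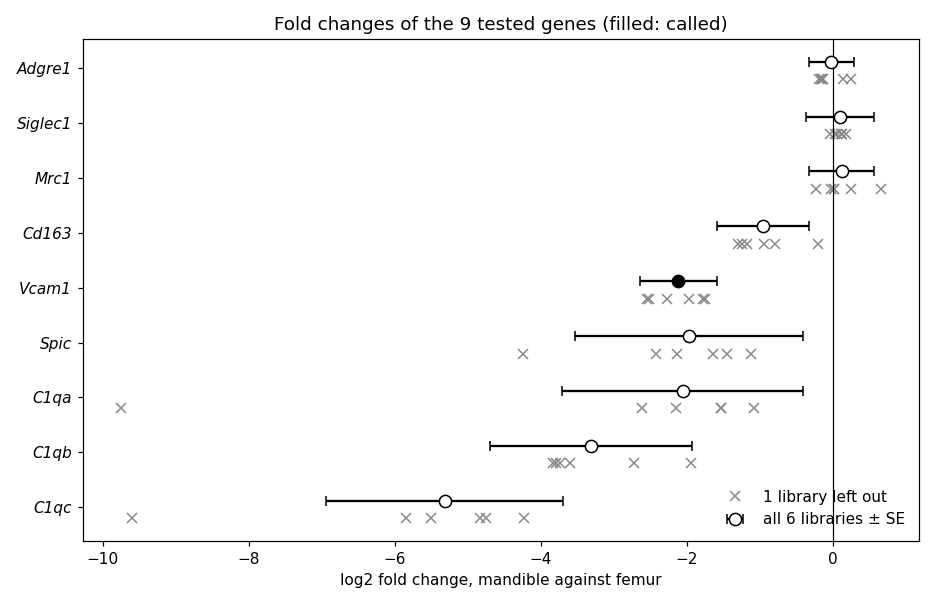
Log2 fold change of the mandible against the femur (horizontal axis) for the 9 tested genes, as circles with the standard error for all 6 libraries and crosses for fits that each left out 1 library. The filled circle marks Vcam1, the called gene, and the crosses of C1qa and C1qc near -10 belong to fits in which no mandible count remained.

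Per 1000 bases of gene length, the macrophage genes stood in a different order in each bone. In the femur the mean level was 15.1 CPM per 1000 bases for Adgre1, 7.29 for Vcam1, 5.11 for C1qa, 4.47 for C1qb, 2.48 for C1qc, 2.42 for Mrc1, 1.52 for Cd163, 0.999 for Siglec1, 0.631 for Spic and 0.0613 for Timd4. Adgre1 (12.1 to 20.1) lay above Vcam1 (2.86 to 10.3) in all femur libraries and Spic (0.228 to 1.19) above Timd4 (0 to 0.163). The ranges of all other neighbours in that order overlapped. In the mandible Adgre1 was again first, at 14.8 CPM per 1000 bases, followed by Mrc1 at 2.62, Vcam1 at 1.68, C1qa at 1.22, Siglec1 at 1.07 and Cd163 at 0.781. C1qb at 0.446, Spic at 0.160 and C1qc at 0.0574 came last, with Timd4 at 0. In the mandible only the range of Adgre1 (9.98 to 17.3) was separated from that of its neighbour, Mrc1 (1.93 to 2.99). These ranges span libraries, and neighbours were not compared within each library.

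Other genes of tissue macrophages did not move as a block. Of 29 genes on that list 23 were tested, 12 had a log2 fold change below 0 and the median was -0.005, and 1 was called lower and none higher. The called gene was Pf4 (platelet factor 4), which is also on the megakaryocyte and platelet list, of which 9 of 10 tested genes were called lower. The most abundant members were Apoe, a lipid carrier, Selenop, a selenium carrier, and Cx3cr1, the fractalkine receptor, whose log2 fold changes of 0.60, -0.13 and 0.87 were not called. Cd5l, a secreted protein of tissue macrophages chosen after its values were seen, was at 7.79, 1.80 and 3.09 CPM in the femur. In the mandible it was at 0, 0.712 and 0 CPM, without overlap (log2 fold change -4.10, standard error 1.61, adjusted p = 0.21). Axl and Pros1, chosen in the same way, had the opposite order, also without overlap. Their log2 fold changes of 1.17 and 0.84 were not called (adjusted p = 0.14 and 0.17). The Kupffer cell gene Clec4f, the scavenger receptor gene Marco and the folate receptor gene Folr2, also chosen after their values were seen, did not pass the filter in these libraries.

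Among 20 regulators of macrophages, all tested, Maf was the called gene. Maf, which encodes the transcription factor c-MAF, was at 16.4, 11.2 and 17.7 CPM in femur S13, S15 and S18 and at 118, 91.9 and 108 CPM in mandible S16, S19 and S23. It was higher in every mandible library, with a log2 fold change of 2.81 (SE 0.28, adjusted p = 0.00024). Maf is not restricted to macrophages, and the mesenchymal markers that were higher in the same libraries are given above, their part in it not tested. The abundant regulators Zeb2, Irf8 and Csf1r differed by 0.69, 0.095 and 0.65 on the log2 scale and were not called.

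The iron and heme list, which holds the enzymes, exporters and stores by which macrophages recycle red cell iron, had 22 of 23 genes tested, 16 of them below 0, a median of -0.16 and no called gene, while 7 had an unadjusted p under 0.05. Its most abundant members were Lrp1, the receptor for heme bound to hemopexin, the ferritin heavy chain gene Fth1 and the haptoglobin gene Hp, at 1.61, -0.10 and -0.30 on the log2 scale (adjusted p 0.060, 0.93 and 0.81). Slc40a1, the iron exporter ferroportin, and Hmox1, the enzyme that opens heme, were chosen after their values were seen. Slc40a1 was at 82.6, 11.98 and 53.7 CPM in the femur and at 16.6, 23.1 and 13.7 CPM in the mandible, so that femur S15 was the lowest library of all (log2 fold change -1.47, standard error 0.55, adjusted p = 0.18). Hmox1 differed by -0.55 on the log2 scale (adjusted p = 0.64). In the list of other erythroblastic island genes, 5 of 16 were called higher and none lower. The 3 with the largest difference were Igf1, a growth factor, Palld, an actin-binding protein, and Spp1 (osteopontin), with log2 fold changes of 4.77, 2.94 and 2.42, all of which mesenchymal cells also express. Epor, the erythropoietin receptor, chosen after its values were seen, was at 4.01 to 17.2 CPM in the femur and 0.712 to 2.25 CPM in the mandible, a log2 fold change of -2.59 that was not called (adjusted p = 0.082).

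Of 32 genes of the classical pathway and its regulators in the table, 17 were tested and 3 were called higher in the mandible, none lower. C1s1 and C1ra, the proteases that bind to C1q, rose by 4.20 and 2.31 on the log2 scale (adjusted p = 0.00083 and 0.0072), and their inhibitor Serping1 rose by 1.85 (adjusted p = 0.0040). C1s1 was at 5.25, 3.73 and 3.67 CPM in the femur and at 27.9, 69.3 and 135 CPM in the mandible, without overlap. Fibroblasts make these proteases too, and the part of the mesenchymal cells was not tested. C3, Itgam and Cfp, the most abundant members, were not called. None of 12 tested C1q receptors and ligands was called, and the most abundant of them, Calr (calreticulin), Lrp1 and Itgb1, had log2 fold changes of 0.10, 1.61 and 0.48.

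Among 25 tested receptors and bridging molecules for the uptake of dying cells, 5 were called higher or lower. Abca1, a lipid exporter, Itgb5, an integrin chain, and Mfge8, a bridging protein, rose by 2.61, 1.88 and 1.75 on the log2 scale, Itgav also rose, and Itgb3, a platelet integrin chain, fell by 1.67. The abundant members Lrp1, Anxa1 and Rac1 were not called. Of the 7 tested relatives of Siglec1 none among the sialic acid lectins was called, Cd33, Siglece and Siglecg being the most abundant. Of 9 tested osteoclast genes, Itgb3 was the called gene. The monocyte list itself had 2 called genes of 24, Nr4a1 and Ace, both higher in the mandible, with log2 fold changes of 1.25 and 1.21. Both are genes of nonclassical monocytes. Other such genes of the list, Cx3cr1, Treml4, Spn and Cd300e, chosen after their values were seen, were not called (0.87, 0.75, 0.37 and 0.14).

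**Figure D4:**
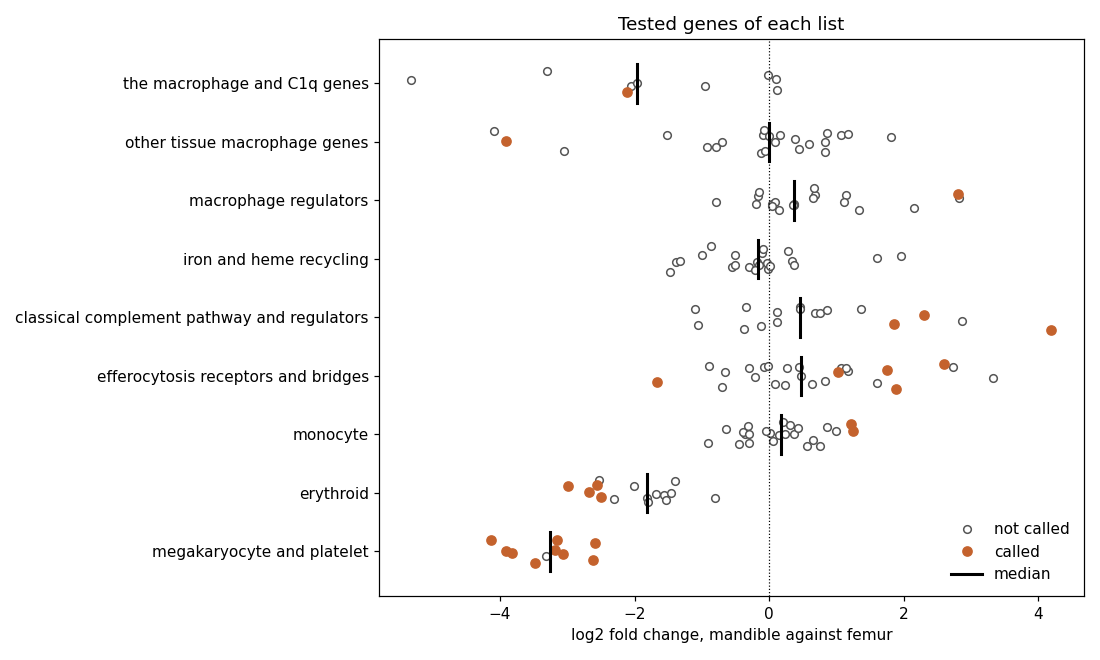
Log2 fold change of the mandible against the femur (horizontal axis) for each tested gene of 9 lists, with called genes filled and the list's median as a bar. The tissue macrophage list centres on -0.005, the erythroid and platelet lists lie below 0, and the called gene among the regulators is Maf.

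The genes whose log2 CPM most resembled the mean of the C1q genes over the 6 libraries were the histone genes H1f1 and H3c1, the respiratory chain gene Cox5b, the spliceosome gene Snrnp25 and Bcas2, with Pearson r of 0.998 to 0.990 among 16240 genes. For Vcam1 they were Iglv2, Ppia, Vbp1, Lig4 and Rpl15, with r of 0.999 to 0.993. None of these is on a macrophage list used here. With 6 libraries in common groups, 170 genes had r above 0.95 with the C1q mean and 237 with Vcam1. Between Vcam1 and the C1q genes themselves r was 0.96 for C1qb, 0.93 for C1qc and 0.41 for C1qa, and between Vcam1 and Adgre1 it was 0.00049.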

How the data were processed

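RNA of 6 monocyte libraries, 3 per bone, was sequenced in paired-end mode. The authors trimmed reads with Trimmomatic, mapped them with HISAT2 2.1.0 to a genome named GRCm38 and counted them with featureCounts; the deposited values are raw counts per gene, without normalization, and gene lengths are deposited beside them. Only 2979 of 52029 genes shared with GENCODE M21 have a deposited interval inside the M21 gene of GRCm38, so positions were taken from M21 by identifier. The use of strand, of reads with several positions and of duplicates is not given in the sources used here.

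After filterByExpr (minimum count 10, minimum total 15) and TMM scaling, the quasi-likelihood F test of edgeR 4.0.16 was run under R 4.3.3 with bone as the only term and a prior count of 0.125, and 18114 of 57010 genes were tested. Genes were called at an adjusted p under 0.05 (Benjamini-Hochberg over all tested genes) and a fold change of at least 2. Standard errors were derived from the test statistic. For the members an exact permutation test was added on log2(CPM + 0.1). The procedure was also run on simulated negative binomial counts. These lacked traits of single libraries, such as the many genes counted in S15 alone, and no result given here rests on them. Alternatives were DESeq2 1.42.0, voom in limma 3.58.1, other scalings, filters and thresholds, and a prior count of 2. A length correction by loess (span 0.4) was also made, and each library was left out in turn. The members and lists were chosen with earlier results of these data known. Named genes were the 10 members, up to 3 most abundant and up to 3 called genes with the largest difference of each list discussed, and the 5 genes most like C1q and Vcam1. Any other gene is marked as chosen after seeing its values.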

Additional observations from a re-analysis of the deposited data

How the results depend on the processing

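Each of the 9 tested genes was refitted under the alternatives. Vcam1, Cd163, Spic, C1qa, C1qb and C1qc kept a log2 fold change below 0 in every fit that could be made. The number of these genes called, 1 with all libraries, was 0 without normalization factors, per count of the monocyte list, at an adjusted p under 0.01 and with edgeR's test against a 2-fold change (glmTreat), and 2 with DESeq2 and in a test of all genes with any count, where C1qc joined Vcam1. With 1 library omitted at a time it ran from 0 to 2. The sign of Adgre1 turned without normalization factors (0.079), that of Mrc1 (-0.30) and Siglec1 (-0.35) after the length correction. The same correction made the changes of C1qa (-1.27), C1qb (-2.71) and C1qc (-5.13) smaller than in the main fit. It made those of Vcam1 (-2.67), Cd163 (-1.24) and Spic (-2.14) larger. With 1 library left out, Adgre1 ran from -0.20 to 0.25, Mrc1 from -0.24 to 0.65 and Siglec1 from -0.034 to 0.18. Timd4 was fitted in the test of all counted genes (-4.54, adjusted p = 0.50). C1qa, C1qb, C1qc and Spic were lost where 10 counts were asked of each library. Over the whole table the 938 calls became 461 per count of the monocyte list, 1548 with DESeq2, 1590 with every counted gene, 445 at an adjusted p under 0.01, 481 with glmTreat, and 434 to 1565 with 1 library left out (434 without mandible S19, 1565 without femur S15). The cause of these shifts was not tested. The femur and mandible libraries share no replicate numbers, so no paired fit was made. Mandible libraries without a count, and scatter between libraries, limit what can be said there of C1q, Spic and Timd4.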
